A study of Mus musculus with 5 samples.

Results

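The Gas6 and protein S axis was described in mouse dorsal skin through 5 genes, the ligands Gas6 and Pros1 and the receptors Axl, Mertk and Tyro3, of 28001 features measured per unsorted library. The 5 were taken by gene symbol, and all 5 were present in the files. They were chosen by measured values, an earlier result of these data in which Gas6 was lower in mutant than in control fibroblasts, so their levels and their genotype differences are given as a description. Single-cell RNA sequencing covered 2 libraries of the mutant genotype Lepr-Cre;mTmG;Smo+/- and 2 of the control, both from unsorted skin at postnatal day 46, and 1 library of GFP-positive cells sorted at postnatal day 50 from Lepr-Cre;mTmG skin. The labels write the control as Lepr-Cre;mTmG in 1 place and with Smo appended in another, and nothing in them describes the change to Smo. All mice were female, and all carried Lepr-Cre, a recombinase driven from the leptin receptor locus, with mTmG, a reporter in which recombination replaces a membrane-bound tomato protein by GFP. Per the labels' protocols, the pair of libraries of each genotype are technical replicates, so errors and p-values reflect the spread between 2 preparations and not between animals.

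GAS6 and protein S are vitamin K-dependent proteins whose γ-carboxylated ends bind phosphatidylserine on dying cells, platelets and vesicles. Their other end binds the receptor tyrosine kinases TYRO3, AXL and MERTK, named TAM after their initials. The ligands thereby bridge an apoptotic cell to a phagocyte, and signalling through the receptors also dampens innate immune responses. GAS6 binds AXL most tightly, while protein S, better known as a cofactor of activated protein C in plasma, activates TYRO3 and MERTK.

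The deposited files held 11563 and 11816 barcodes in mutant, 10748 and 11072 in control and 455 in the sorted library, with 1138206 UMIs in the sorted and between 147245343 and 171197845 in each unsorted library. After filtering, 8384 and 8673 mutant, 8102 and 8241 control and 432 sorted cells remained, with medians of 8455 and 8323 UMIs in mutant, 9488 and 9756 in control and 2209 in sorted cells. Between 24 and 46 barcodes were shared by any pair of unsorted libraries, and none with the sorted library. Cells were assigned to groups, called gates here, from marker genes of 22 cell types that did not include the 5 genes. Of the resulting gates, 16 held at least 20 cells in every unsorted library. Smo itself, read by tags at the 3′ end that do not test the allele, stood at 44.1 and 45.8 counts per 1000000 UMIs of the gate (CPM) in mutant and 37.3 and 35.3 CPM in control papilla cells. In fibroblasts the genotypes overlapped, with 47.6 and 39.7 CPM in mutant and 40.3 and 44.7 CPM in control libraries.

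Gas6 and its receptor Axl carry most of what follows in the mesenchyme. The 250 bases before their RefSeq start sites are shown because the mutant genotype names Smo, a transducer of Hedgehog signals, and that pathway acts on transcription through GLI factors. Capitals mark every match to the GC box GGGCGG on either strand, and the GLI motif GACCACCCA and the TATA box TATAAA were searched in the same way. The Gas6 window is chr8:13494536-13494785 on the minus strand and the Axl window chr7:25788734-25788983 on the minus strand, both of GRCm38.p6, written 5′ to 3′ in the direction of the gene.
Gas6: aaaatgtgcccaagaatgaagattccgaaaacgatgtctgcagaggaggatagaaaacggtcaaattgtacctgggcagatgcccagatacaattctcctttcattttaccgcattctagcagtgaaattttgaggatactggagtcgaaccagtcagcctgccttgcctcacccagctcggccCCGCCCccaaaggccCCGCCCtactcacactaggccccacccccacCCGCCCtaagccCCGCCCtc
Axl: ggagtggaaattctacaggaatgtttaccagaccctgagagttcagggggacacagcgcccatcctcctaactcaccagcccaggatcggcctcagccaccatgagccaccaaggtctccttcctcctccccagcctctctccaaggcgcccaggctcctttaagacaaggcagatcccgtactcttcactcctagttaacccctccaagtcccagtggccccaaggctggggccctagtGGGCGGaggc
The Gas6 window held 4 GC boxes and the Axl window 1, and all 5 genes had at least 1. A GC box stood in 32.7% of the 32851 RefSeq windows of this length. Neither the GLI motif, found in 0.225% of windows, nor the TATA box, found in 12.4%, stood in any of the 5. The matches are letters in a window and say nothing of binding.

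Gas6 (ENSMUSG00000031451, chromosome 8, 13465374 to 13494490 on the minus strand, GRCm38) was highest in fibroblast-gate cells of both genotypes. It stood at 205 and 230.3 CPM in mutant and 599 and 517 CPM in control fibroblasts. Both mutant libraries lay below both control libraries. In mutant skin the next levels were those of bulge keratinocytes, the stem cells of the resting follicle, at 116 and 138 CPM, and of lymphatic endothelium at 109 and 128 CPM, which overlapped. In control skin lymphatic endothelium came second at 154 and 193 CPM, and papilla cells at 137 and 131 CPM overlapped bulge keratinocytes at 143 and 120.1 CPM. Blood endothelium followed at 82.1 and 69.2 CPM in mutant and 85.7 and 100 CPM in control libraries. The other keratinocyte gates lay between 44.2 and 65.8 CPM, with 49.6 and 50.1 CPM in mutant and 62.3 and 61.3 CPM in control basal cells. Both mutant libraries also lay below both control libraries in lymphatic and blood endothelium, dermal sheath, Langerhans cells, and basal and suprabasal keratinocytes. Mutant levels there were 0.671 to 0.836 times those of the control. Mural cells went the other way, papilla cells are described below, and the remaining gates overlapped between genotypes. Cells of the T gate, which should lack the gene, gave 5.62 and 5.1 CPM in mutant and 10.4 and 3.12 CPM in control libraries. They serve as a guide to background, which was not measured directly.

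The papilla gate held the widest genotype difference of the 5 genes as a fold, while in CPM that of fibroblast Gas6 was wider. The papilla, a mesenchymal condensate at the base of the follicle, sends growth signals to the epithelium. Gas6 stood at 15.1 and 13.8 CPM in mutant papilla cells, against 137 and 131 CPM in control papilla cells. The mutant level was 0.108 times that of the control, and both mutant libraries stayed above the mutant T-gate values. Single cells showed the same: with every cell thinned to 2000 UMIs, 3.08% and 3.27% of mutant papilla cells had a Gas6 UMI, against 21.3% and 19.2% of control papilla cells. The same share in the T gate was 1.24% and 0.847% in mutant and 1.79% and 0.379% in control libraries. Without thinning the shares were 10.7% and 10.5% of mutant and 47.5% and 43.0% of control papilla cells, at similar median depths of 6221 and 6174 UMIs in mutant and 5832 and 6186 UMIs in control cells. Thinning left out 22 and 31 mutant and 36 and 34 control papilla cells with fewer UMIs.

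The papilla difference stood at every depth of cell. Papilla cells with 4000 to 8000 UMIs, the most frequent in mutant skin, gave 15.3 and 15.1 CPM of Gas6 in mutant and 169 and 72.4 CPM in control libraries. Those with at least 16000 UMIs, which held 922 of the control gate's Gas6 UMIs, gave 11.7 and 10.5 CPM in mutant and 134 and 138 CPM in control libraries. In each of the 5 depth bins both mutant libraries lay below both control libraries. Fibroblasts were less even across depth: at 4000 to 8000 UMIs mutant libraries gave 188 and 200.7 CPM and control libraries 288 and 205 CPM, and at 2000 to 4000 UMIs the genotypes overlapped, with 127 and 211 CPM in mutant and 348 and 202 CPM in control libraries. At 16000 UMIs or more fibroblasts gave 160 and 197 CPM in mutant and 1085 and 785 CPM in control libraries.

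**Figure D1:**
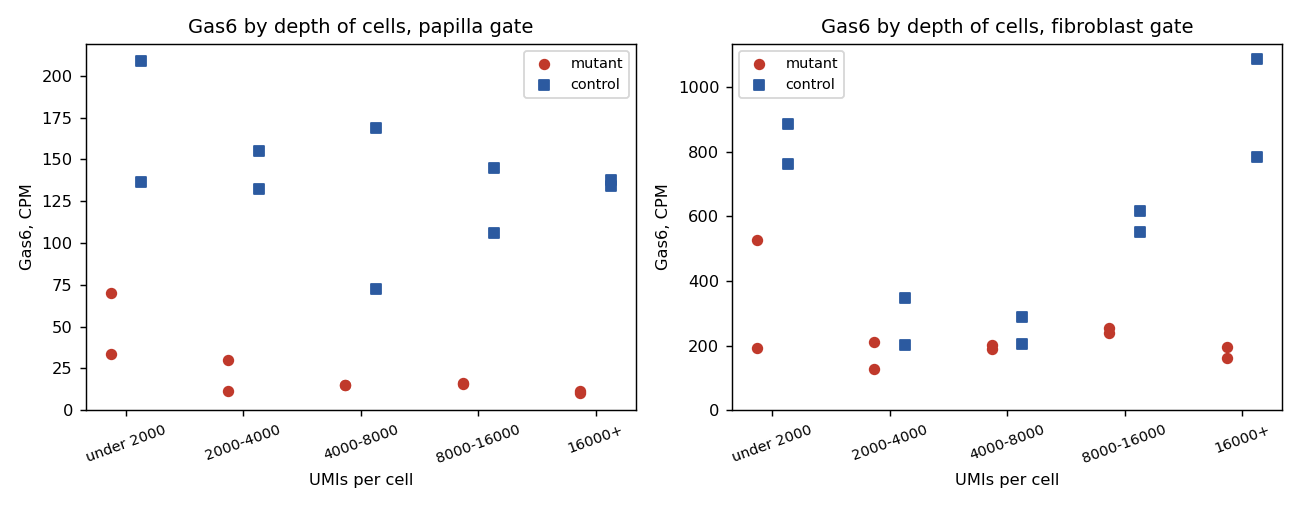
Gas6 level in CPM (vertical axis, linear from 0, separate scales) for papilla-gate (left) and fibroblast-gate (right) cells in 5 bins of UMIs per cell, 1 point per library, mutant as circles and control as squares. Mutant papilla libraries lie below both control libraries in every bin, and the fibroblast difference is widest among the deepest cells.

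Other markers moved with genotype in the papilla gate. The 9 dermal sheath markers summed to 1551 and 1565 CPM in mutant and 561 and 538 CPM in control papilla cells, with 5 of 8 tested higher in mutant and none lower. Sheath cells are the contractile neighbours of the papilla, and in their own gate Gas6 stood at 48.9 and 38.2 CPM in mutant and 57.7 and 53.0 CPM in control libraries, above the mutant papilla level. The 12 fibroblast markers summed to 2929 and 2820 CPM in mutant and 1709 and 2309 CPM in control papilla cells. Of the 16 papilla markers 15 were tested, and 7 were higher and 1 lower in mutant papilla cells. Higher and lower in these counts follow the call rule given below, by which 5.14% of all 12909 genes tested in this gate were called. Whether this reflects other cells in the gate or other levels in the same cells was not tested. Among the other lists, 2 of 8 mural markers were higher and 1 lower, and 2 of 5 blood endothelial, 2 of 10 Langerhans and 2 of 3 adipocyte markers were higher. Pdpn, Scn7a, Mcpt4, S100a8 and Mgst1 were also higher, and Xcl1 and Trp63 lower, each from a list of another cell type. How much of the Gas6 difference comes with these markers was not tested.

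Fibroblast-gate cells were then divided by markers, a step added after the values had been seen. Cells with Coch, which encodes the matrix protein cochlin, but neither Pi16 nor Dpp4 had little Gas6, with 25.6 and 27.4 CPM in mutant and 25.4 and 16.7 CPM in control libraries. Cells with Pi16 or Dpp4, markers of universal or fascia-associated fibroblasts, but no Coch had 308 and 308 CPM in mutant and 749 and 641 CPM in control libraries. Those with none of the 3 had 199 and 247 CPM in mutant and 760 and 696 CPM in control libraries. The genotype difference thus stood in the divisions where Gas6 was high and not where it was low. When the divisions of each library were weighted by their mean control share of cells, the fibroblast level was 215 and 231 CPM in mutant and 608 and 536 CPM in control libraries. Weighting by cells puts these levels on another scale than the CPM of the undivided gate. The divisions themselves differed between genotypes: cells with none of the 3 markers had 493 and 519 CPM of eGFP in mutant and 58.0 and 57.1 CPM in control libraries. Among other marker lists in the undivided gate, the 8 adipocyte markers summed to 274 and 246 CPM in mutant and 155 and 152 CPM in control fibroblasts, with 2 of 3 tested higher, and the 7 lymphatic markers used of the 8 listed to 253 and 244 CPM in mutant and 150.1 and 153 CPM in control fibroblasts, with 0 of 5 tested called. The 12 blood endothelial markers summed to 84.4 and 87.1 CPM in mutant and 74.1 and 77.3 CPM in control fibroblasts, with 3 of 9 tested higher, Cdh5, Flt1 and Tek. The 16 papilla markers summed to 879.5 and 875 CPM in mutant and 1163 and 1129.7 CPM in control fibroblasts, with 2 of 14 tested higher, Lef1 and Sox18. Acta2, Myh11 and Mlana were also higher and Gucy2c and Krt79 lower, each from a list of another cell type. By the call rule given below, 1.57% of all 13039 genes tested in this gate were called. The part of these markers in the Gas6 difference was not tested.

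**Figure D2:**
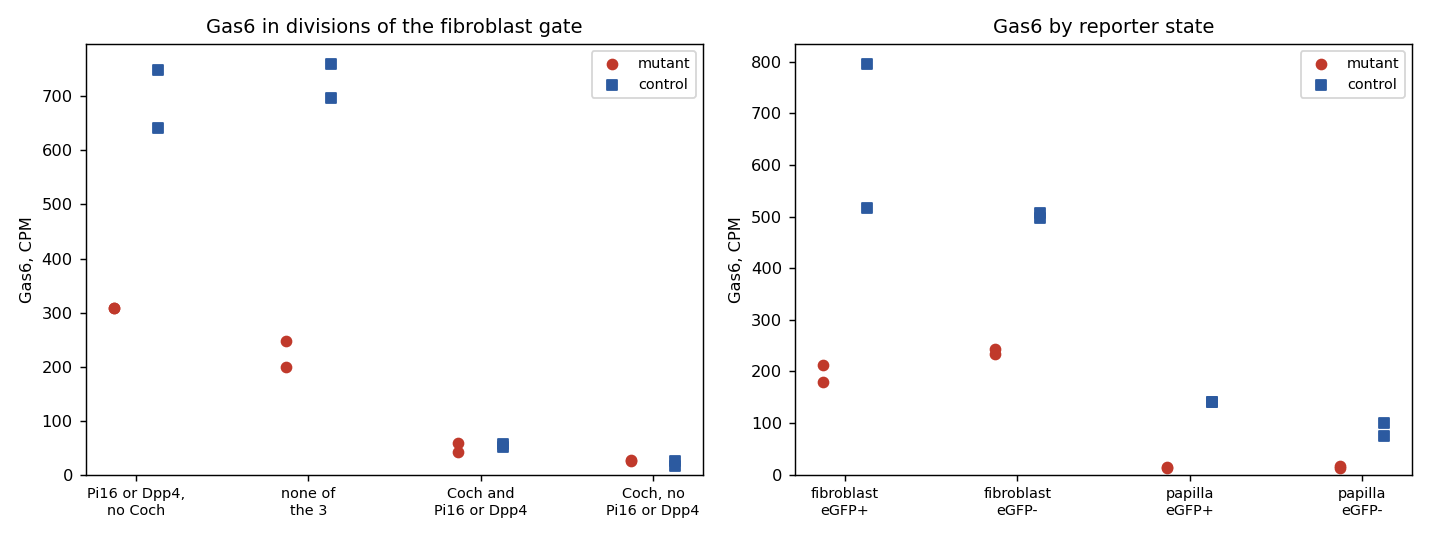
Gas6 level in CPM (vertical axis, linear from 0), 1 point per library, mutant as circles and control as squares: left, divisions of the fibroblast gate by Coch and by Pi16 or Dpp4; right, cells with at least 1 eGFP UMI (eGFP+) and cells with none and at least 1 tomato UMI (eGFP-) in the fibroblast and papilla gates. Mutant libraries lie below control libraries in both reporter states of both gates, and all libraries are low where Coch is on.

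Pros1 (ENSMUSG00000022912, chromosome 16, 62854307 to 62929346 on the plus strand) was spread over stromal, vascular and glial cells and was even between genotypes in most of them. Schwann cells, the glia of skin nerves, led with 148 and 180 CPM in mutant and 149 and 163 CPM in control libraries. Lymphatic endothelium followed with 144 and 130.2 CPM in mutant and 149 and 139 CPM in control libraries, and fibroblasts with 131 and 142 CPM in mutant and 140 and 131 CPM in control libraries. These 2 gates overlapped each other and mast cells, which ran from 91.2 to 164 CPM over the 4 libraries. Papilla cells were the exception to evenness: 52.9 and 50.8 CPM in mutant stood above 41.3 and 42.2 CPM in control libraries. Keratinocyte gates lay between 12.6 and 19.5 CPM. In mutant papilla cells Pros1 was thus not below its control level, whereas Gas6 was.

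Axl (ENSMUSG00000002602, chromosome 7, 25757273 to 25788705 on the minus strand) was a mesenchymal receptor in this skin. Fibroblasts led with 189 and 189 CPM in mutant and 251 and 255 CPM in control libraries, and the mutant libraries lay below the control ones. Dermal sheath cells followed with 128 and 142 CPM in mutant and 119 and 117 CPM in control libraries. Mural cells, which wrap small vessels, had 120 and 99.7 CPM in mutant and 132 and 100.2 CPM in control libraries, and papilla cells 112 and 101 CPM in mutant and 97.1 and 99.4 CPM in control libraries. In mutant skin the mural and papilla values overlapped each other, and in control skin the sheath and mural values did. Axl in papilla cells thus differed little between genotypes, unlike Gas6 in the same cells. Outside the mesenchyme, Schwann cells had 74.8 and 81.1 CPM in mutant and 43.1 and 65.0 CPM in control libraries. Axl stood at 53.6 and 49.8 CPM in mutant and 53.9 and 51.5 CPM in control basal keratinocytes and at 34.4 and 30.2 CPM in mutant and 32.6 and 31.5 CPM in control Langerhans cells, the dendritic cells of the epidermis. Lymphatic endothelium, at 8.38 and 6.64 CPM in mutant and 6.91 and 11.5 CPM in control libraries, overlapped the T gate, at 11.2 and 10.6 CPM in mutant and 9.62 and 5.46 CPM in control libraries. Blood endothelium ran from 12.2 to 21.7 CPM in mutant and from 0 to 4.76 CPM in control libraries. That difference, opposite to the one in fibroblasts, rested on 15 Axl UMIs in mutant and 2 in control libraries.

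Mertk (ENSMUSG00000014361, chromosome 2, 128698956 to 128802894 on the plus strand) was highest in lymphatic endothelium, where Axl overlapped the T gate. Lymphatic cells had 49.1 and 74.4 CPM in mutant and 63.4 and 61.9 CPM in control libraries, and Schwann cells had 37.4 and 47.8 CPM in mutant and 56.0 and 45.2 CPM in control libraries. Blood endothelium ran from 15.6 to 78.6 CPM over 38 to 60 cells per library and overlapped both. Bulge keratinocytes had 29.1 and 25.7 CPM in mutant and 31.7 and 23.6 CPM in control libraries, whereas basal keratinocytes had 1.32 and 1.23 CPM in mutant and 1.19 and 1.21 CPM in control libraries. Among epidermal cells Mertk thus separated the bulge from the interfollicular layers. Fibroblasts had 15.8 and 17.3 CPM in mutant and 18.4 and 17.7 CPM in control libraries.

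Tyro3 (ENSMUSG00000027298, chromosome 2, 119797733 to 119818104 on the plus strand) was low everywhere and highest in keratinocyte gates. Suprabasal keratinocytes, the differentiating layers of the epidermis, had 14.8 and 12.2 CPM in mutant and 17.3 and 15.8 CPM in control libraries. Bulge keratinocytes had 15.3 and 12.4 CPM in mutant and 11.4 and 10.5 CPM in control libraries and overlapped the suprabasal values in mutant skin only. Basal keratinocytes were lower, with 6.98 and 6.60 CPM in mutant and 6.72 and 7.19 CPM in control libraries. Fibroblasts stood between 2.29 and 3.05 CPM, and lymphatic endothelium had 0 UMIs in 2 of the 4 libraries.

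**Figure D3:**
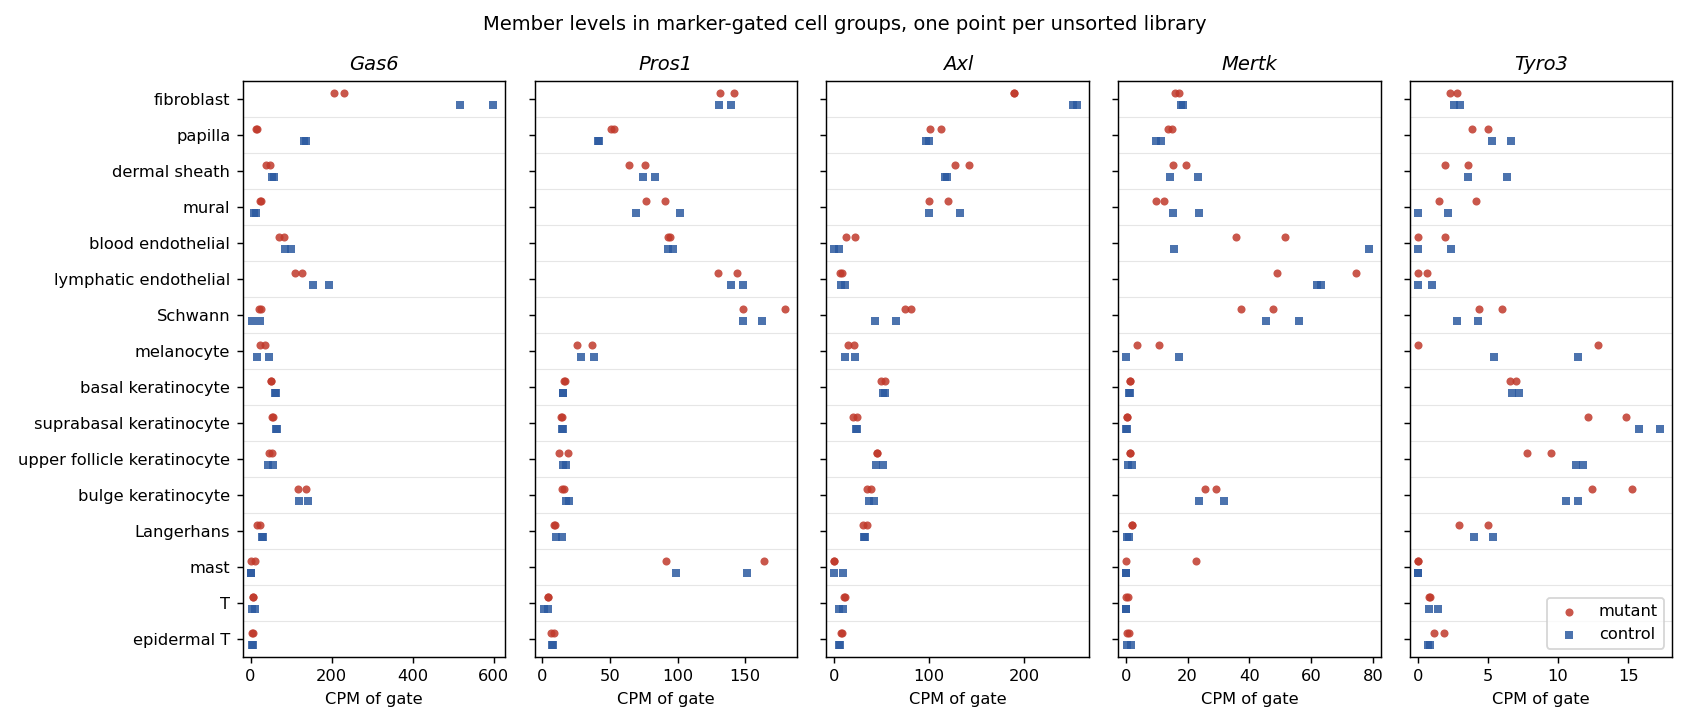
Levels of Gas6, Pros1, Axl, Mertk and Tyro3 in CPM (horizontal axes, linear, a separate scale for each gene) in 16 marker-gated cell groups, 1 point per library, mutant circles above control squares in each row. Gas6 and Axl peak in fibroblasts, Pros1 in Schwann cells, Mertk in lymphatic endothelium and Tyro3 in suprabasal and bulge keratinocytes.

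Macrophages, the cells best known for MERTK-dependent clearance, were too few to describe, with 5 and 10 mutant and 10 and 10 control cells. They held 1 Mertk UMI in all, which came from a mutant library. A count of 0 in the control libraries allowed up to 33.3 and 40.7 CPM, so a level like that of lymphatic endothelium lies above these limits while one like that of fibroblasts does not.

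Genes with the most similar pattern over the 16 gates were found by Pearson correlation of log2(CPM + 1) among 6312 genes, with the 4 unsorted libraries pooled by their mean. These correlations describe 16 points that share their libraries. For Gas6 they were Rin2, a guanine exchange factor of RAB5 (r = 0.897), Atrnl1 (r = 0.892) and Nfix, a nuclear factor I transcription factor (r = 0.880). Pros1 was closest to Tmco1, Slc39a1 and Dusp3 (r from 0.911 to 0.937). Axl was closest to Gpx8, Sh3pxd2a, a podosome scaffold, and Gsn, which encodes gelsolin (r from 0.877 to 0.923). Mertk was closest to Plpp1, the thyroid hormone receptor gene Thra and the caveolin gene Cav1 (r from 0.913 to 0.936). Tyro3 was closest to Tuft1, Fdft1, a sterol synthesis enzyme, and the hairless gene Hr (r from 0.920 to 0.934).

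Genotype was compared across all genes with edgeR's quasi-likelihood test on UMIs summed per library, in the 5 planned gates that held enough cells. Calls required both an adjusted p (Benjamini-Hochberg) below 0.05 and a log2 fold change of 1 or more in either direction. Among fibroblasts 1 of the 5 genes, Gas6, was called, at a log2 fold change of -1.33 ± 0.0724 (SE, n = 2 libraries each), where 1.57% of 13039 genes were called. Axl in the same cells had -0.40 ± 0.0482, which is under the fold minimum. Among papilla cells 1 of 5 was called, again Gas6, at -3.17 ± 0.101, where 5.14% of genes were called. Pros1 there had 0.35 ± 0.0986, Mertk 0.46 ± 0.179 and Axl 0.16 ± 0.0802. Since the genes were picked for earlier results of the same contrast, nothing is read from these counts.

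None of the 5 was called in the other 3 gates. In mural cells, where 0.401% of genes were called and Mertk and Tyro3 were too low to test, Gas6 stood at 26.5 and 24.5 CPM in mutant and 13 and 7.56 CPM in control libraries (log2 fold change 1.32 ± 0.515). This was the only fitted gate in which both mutant libraries were above both control libraries for Gas6. It rested on 35 Gas6 UMIs in mutant and 10 in control libraries. The control values lay near the 10.4 and 3.12 CPM of control T-gate cells. In basal keratinocytes, where 2.07% of genes were called, Gas6 had -0.33 ± 0.0339 and the other 4 genes lay between -0.06 and 0.07. In blood endothelium, where 0.0884% of genes were called and Axl and Tyro3 were not tested, Gas6 had -0.31 ± 0.264.

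**Figure D4:**
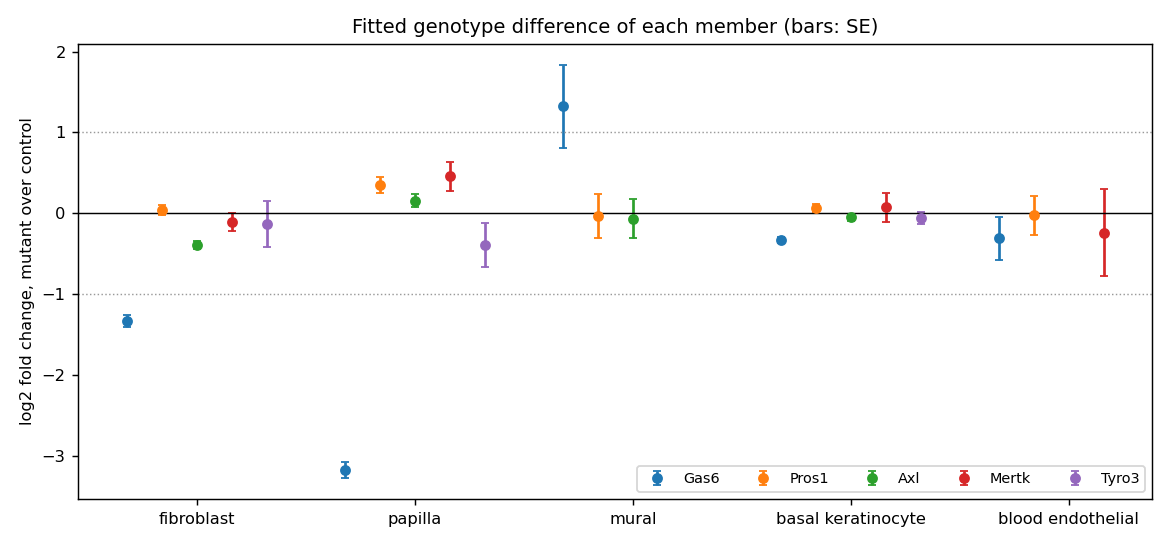
Fitted log2 fold change of mutant over control (vertical axis) for each gene tested in 5 gates, with bars of 1 SE from edgeR on 2 libraries per genotype; dotted lines mark an absolute log2 fold change of 1. Gas6 in fibroblasts and papilla cells is the only gene that lies below the lower line.

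Other genes of the pathway were read from 3 lists. These were chosen with earlier results of these data known, so their counts, medians and p-values are given as a description and not as independent evidence. The list of the TAM axis itself held 17 genes for vitamin K-dependent carboxylation, receptor shedding and downstream signalling, such as Ggcx, the γ-carboxylase, Adam10 and Adam17, which shed receptor ectodomains, and Socs1 and Socs3, feedback inhibitors of cytokine signalling. None of the 17 tested was called in fibroblasts, papilla cells or basal keratinocytes, and none of 14 in mural or 13 in blood endothelial cells. The median log2 fold change of the list was -0.03 in fibroblasts and -0.01 in papilla cells, beside 0.00 over all genes in each gate. With 1.57% and 5.14% of all genes called in fibroblasts and papilla cells, a list of this size may hold no called gene, and nothing is read from the count.

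Other genes for uptake of apoptotic cells made a list of 32. Of 25 tested in papilla cells 2 were higher in mutant and none lower, at a list median of 0.03, near the 5.14% of all genes called. Edil3, a bridge from phosphatidylserine to integrins, had 21.5 CPM in mutant and 3.47 CPM in control papilla cells on the TMM scale (log2 fold change 2.63 ± 0.213, edgeR adjusted p = 1.74e-08). Plscr1, a member of the phospholipid scramblase family, had 352 CPM in mutant and 125 CPM in control papilla cells on the same scale (1.5 ± 0.0868, edgeR adjusted p = 1.22e-10). The same 2 of 25 tested were called in fibroblasts, where 1.57% of all genes were called, both higher: Plscr1 at 1.5 ± 0.111 (edgeR adjusted p = 7.84e-06) and Edil3 at 1.51 ± 0.400 (edgeR adjusted p = 0.0333). Edil3 in fibroblasts rested on 2.76 CPM in mutant and 0.958 CPM in control libraries and lost its call without mutant replicate 1, without mutant replicate 2 or without control replicate 2, among other settings. None was called of 14 tested in mural cells, 30 in basal keratinocytes and 17 in blood endothelium.

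The third list held 17 partners of protein S and of coagulation. It too was chosen with earlier results known, so its values are a description. In fibroblasts 4 of 15 tested were higher in mutant and none lower, where 1.57% of all genes were called, with a list median log2 fold change of 0.37 beside 0.00 over all genes. They were C4b, a complement component (1.58 ± 0.180), Thbd, thrombomodulin, the endothelial thrombin receptor (1.18 ± 0.153), Serpine2, a thrombin and plasminogen activator inhibitor (1.18 ± 0.0666), and Plat, tissue plasminogen activator (1.03 ± 0.0918), with edgeR adjusted p of 0.000226, 0.000483, 8.44e-07 and 3.76e-05. C4b has a close paralog that could share its reads. Plat lost its call without mutant replicate 1, without control replicate 1 and without the low-count filter. Thbd lost its call without mutant replicate 1, with the stricter gate and without the low-count filter. In papilla cells 1 of 15 was called, near the 5.14% of all genes. It was F5, coagulation factor V, the protein that activated protein C and protein S inactivate, with 25.0 CPM in mutant and 1.53 CPM in control libraries (4.02 ± 0.282, edgeR adjusted p = 2.16e-09). Tfpi2, a Kunitz-type protease inhibitor, was the 1 gene of 13 called in mural cells, where 0.401% of all genes were called, and was lower in mutant at 64.0 CPM against 185 CPM in control libraries (-1.53 ± 0.275, edgeR adjusted p = 0.0224), a call lost with DESeq2 and with the stricter gate. In basal keratinocytes Thbd and F5 were called higher of 16 tested, at no more than 1.79 CPM, where 2.07% of all genes were called. Each lost its call without mutant replicate 2, and F5 also without mutant replicate 1 and without control replicate 2. No gene of the list was called of 10 tested in blood endothelium.

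The reporter allowed a comparison within each library. The choice of genes had not used the effect within a genotype. It had used genotype in fibroblasts, so p-values of the mutant minus control difference are given only as a description. Fibroblast-gate cells with at least 1 eGFP UMI were set against cells with none and at least 1 tomato UMI, with the library as a term. In mutant libraries Gas6 stood at 180 and 213 CPM in reporter-positive fibroblasts, against 233 and 243 CPM in reporter-negative ones (log2 fold change -0.30 ± 0.111, edgeR adjusted p = 0.258). In control libraries it stood at 795 and 517 CPM in positive and 496 and 507 CPM in negative fibroblasts (0.33 ± 0.109, edgeR adjusted p = 0.397). The first control library carried that difference, and without it the control effect was 0.012 ± 0.0754. The effect in mutant minus that in control was -0.63 ± 0.155 (edgeR adjusted p = 0.15). None of the 5 genes was called in mutant, in control or in the difference, where 0.328%, 0.0492% and 0.107% of genes were called. Both reporter states of mutant fibroblasts were below both of control fibroblasts.

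Cells that should lack the reporter limit this contrast. An eGFP UMI was found in 48.5% and 44.2% of mutant and 33.0% and 35.0% of control fibroblasts, but also in 14.1% and 15.6% of mutant and 14.4% and 12.2% of control T-gate cells. Among basal keratinocytes the share was above that of fibroblasts, at 59.9% and 59.4% in mutant and 58.4% and 57.7% in control libraries. Median depth was 4398 to 4688 UMIs in T-gate cells, 8821 to 10939 UMIs in fibroblasts and 16567.5 to 17475 UMIs in basal keratinocytes. The eGFP level was 325 and 316 CPM in mutant fibroblasts, while that of control fibroblasts, 69.8 and 68.1 CPM, was close to the 58.8 and 60.2 CPM of control basal keratinocytes. When positive cells had to hold at least 2 eGFP UMIs, the Gas6 effect was -0.62 ± 0.0789 in mutant (edgeR adjusted p = 0.000325) and 0.56 ± 0.0771 in control fibroblasts (edgeR adjusted p = 0.00370), and the difference of -1.18 ± 0.110 was called (edgeR adjusted p = 8.51e-05). Cells with at least 2 eGFP UMIs had medians of 14312.5 and 13369 UMIs in mutant and 10015 and 9873 UMIs in control fibroblasts, against 10035 and 9736 UMIs in mutant and 8680 and 9273 UMIs in control negative cells, and the part of this depth gap was not tested. The result therefore turns on how a positive cell is defined, and the call on the difference is not independent of the choice of Gas6. The eGFP level also differed between divisions of the fibroblast gate. Cells without Coch, Pi16 or Dpp4 had 493 and 519 CPM in mutant and 58.0 and 57.1 CPM in control libraries. Those with Pi16 or Dpp4 but no Coch had 147 and 152 CPM in mutant and 93.2 and 85.4 CPM in control libraries. Gas6 was uneven across divisions too, being low in cells with Coch. The part of the division mix in these reporter effects was not tested.

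Papilla cells were compared in the same way, a fit added after the values had been seen. Gas6 stood at 15.6 and 12.5 CPM in reporter-positive and 14.0 and 16.9 CPM in reporter-negative mutant papilla cells, and at 141 and 141 CPM in positive and 101 and 74.7 CPM in negative control papilla cells. Gas6 was thus low in mutant papilla cells with and without a detected eGFP UMI. A cell without a detected eGFP UMI may still be recombined, so recombined and other cells are not told apart here. Within control libraries Gas6 was higher in positive cells (0.70 ± 0.153, edgeR adjusted p = 0.00279), and Axl (-0.57 ± 0.146, edgeR adjusted p = 0.0114) and Pros1 (-0.61 ± 0.176, edgeR adjusted p = 0.0245) were lower, all under the fold minimum. Positive control cells had medians of 13629 and 10533 UMIs and negative ones 3782 and 4262, and the part of this depth gap was not tested. None of the 5 genes was called in mutant, in control or in the difference, where 0.0914%, 3.13% and 1.27% of genes were called.

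The sorted library, made with an earlier capture chemistry and at another age, held 194 papilla-gate, 74 fibroblast-gate and 53 blood endothelial cells. Its levels are set beside the others without a test, with exact 95% Poisson intervals that cover counting error only. Gas6 stood at 122 CPM (93.1 to 158) in sorted papilla cells, 669 CPM (550.3 to 806) in sorted fibroblasts and 108 CPM (67.9 to 164) in sorted blood endothelium. These lie near the control levels of the unsorted libraries. Axl had 137 CPM (106 to 174), 301 CPM (224 to 397) and 44.3 CPM (20.3 to 84.1) in the same order of gates. Pros1 had 58.0 CPM (38.5 to 83.8) in sorted papilla cells and 66.3 CPM (33.1 to 119) in sorted fibroblasts, the second below the levels of unsorted fibroblasts of either genotype. Mertk and Tyro3 gave 7 and 2 UMIs over all 432 sorted cells, and no Tyro3 UMI was found in blood endothelium, which allows up to 14.8 CPM.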

How the data were processed

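The authors deposited raw counts of UMIs for each gene in each barcode, restricted to barcodes called as cells. Per the file headers, the unsorted counts came from Cell Ranger 3.1.0; the submitters' processing notes also name Cell Ranger 2.1.1, Seurat 3.2.2, Scanpy 1.6.0, mm10 and GRCm38. Per the labels' protocols, version 2 of the 10x Genomics 3′ chemistry was used for sorted and version 3 for unsorted cells. The 5 genes, the pathway lists and the markers were chosen with earlier results of these data known.

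Kept cells had 500 to 8000 genes, or a minimum of 300 in the sorted library, and mitochondrial UMIs of 10% or less. Doublets were removed from unsorted libraries at a scrublet score of 0.25 (scanpy 1.11.5), which took 161 and 145 mutant and 176 and 159 control barcodes; the score was fixed after automatic thresholds had failed in some libraries, and none was sought in the sorted library. A marker was on at a share of 0.15 of its mean in the top 1% of cells. A gate needed at least 3 markers of its lineage with a margin of 2 over others. At least 3 of the gate's own markers also had to be on, or 2 for lymphatic endothelium. Lymphatic and bulge gates took precedence within their lineages, and blood endothelial cells with a Prox1, Mmrn1, Flt4 or Reln UMI were left out. These thresholds were set with the markers in view. Gating assigned 79.6% and 79.7% of mutant and 84.5% and 84.6% of control cells. Counts were summed per library and gate and tested with edgeR 4.0.16 in R 4.3.3 (TMM scaling, filterByExpr), with 2 libraries against 2. The procedure was checked on simulated counts. CPM are per gate sum, on the TMM scale where said. The planned macrophage fit had under 20 cells per library and was not made. Named pathway genes are those called. For each gene 3 neighbours were taken by correlation among genes with at least 50 CPM in a gate, with gate markers, the 5 genes and the reporter left out. Alternatives were DESeq2 1.42.0, its size factors, no low-count filter, a replicate block, each library left out, a stricter gate with at least 4 markers, doublets kept, no thinning and up to 20% mitochondrial UMIs. Promoters are RefSeq sequences of GRCm38.p6, matched for all 5 genes, and gene coordinates come from GENCODE on GRCm38.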

Additional observations from a re-analysis of the deposited data

Results flagged for a closer look

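Several differences between genotypes ran in opposite directions in different gates, with both mutant libraries on one side of both control libraries each time; whether the gates differ was not tested. For Gas6, the log2 fold changes of mutant over control were -1.33 in fibroblasts and -3.17 in papilla cells. They were -0.33 in basal keratinocytes and -0.31 in blood endothelium, against 1.32 in mural cells on 35 mutant and 10 control UMIs. For Axl they were -0.40 in fibroblasts and 0.16 in papilla cells. For Mertk they were -0.10 in fibroblasts, 0.46 in papilla cells and 0.074 in basal keratinocytes, but the stricter gate turned the first and the last to 0.056 and -0.34.

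Within fibroblasts, the reporter contrast of Gas6 pointed down in both mutant libraries and, in CPM, up in both control libraries, although the second control library had only 517 CPM in positive and 507 CPM in negative cells. The effect in mutant minus that in control was -0.63 on the log2 scale (edgeR adjusted p = 0.15). It was -0.31 without control replicate 1, -0.91 without control replicate 2 and -0.59 without the low-count filter (edgeR adjusted p = 6.81e-07). Nothing is read from p-values of this difference, since Gas6 was chosen by genotype in fibroblasts. The part of the fibroblast division mix in this difference was not tested. For Pros1 the difference was -0.16 (edgeR adjusted p = 0.747), and its control effect without control replicate 1 was -0.011, so no direction is read from the control libraries.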

How the results depend on the processing

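The 1 called gene in fibroblasts and in papilla cells was Gas6 under all 10 alternatives, at log2 fold changes from -1.44 to -1.22 and from -3.25 to -3.10, and none of the 5 was called in the other 3 gates under any of them. With the replicate block, the count of called members stayed at 1 in fibroblasts and 1 in papilla cells. Deviations of same-numbered libraries correlated at 0.02 and -0.02 in these gates and at 0.10 in blood endothelium. No pairing by number was seen in fibroblasts or papilla cells, but such correlations also carry counting noise and cannot exclude one. The block left the counts of called pathway genes within 1.5 times.

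Uncalled values near 0 changed sign under some settings; the cause was not tested. With the stricter gate, Mertk had 0.056 in fibroblasts and -0.34 in basal keratinocytes, Tyro3 0.0083 in fibroblasts, Axl 0.032 in mural cells and 0.022 for the reporter in mutant papilla cells. Without the low-count filter, Pros1 had -0.0087 for the reporter in control fibroblasts.

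Ranges over leaving out each library in turn were -0.015 to 0.10 for Pros1 and -0.28 to 0.0093 for Tyro3 in fibroblasts, -0.27 to 0.28 for Pros1 and -0.26 to 0.15 for Axl in mural cells, and -0.080 to 0.022 for Pros1 and -0.87 to 1.39 for Mertk in blood endothelium. For the reporter contrast they were -0.25 to 0.014 for Axl in mutant fibroblasts, -0.011 to 0.033 for Pros1 in control fibroblasts, -0.13 to 0.14 for Axl in the mutant minus control difference of fibroblasts, and -0.48 to 0.13 for Gas6, -0.19 to 0.015 for Axl and -0.17 to 0.027 for Pros1 in mutant papilla cells. With at least 2 eGFP UMIs, 1 of the 5 genes was called in the fibroblast difference, against 0; in the papilla fit, added after the data were seen, the Gas6 difference was called only without control replicate 1, at -1.08.

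The number of pathway genes called was 6 in fibroblasts, 3 in papilla cells, 1 in mural cells, 2 in basal keratinocytes and 0 in blood endothelium. Without the low-count filter it was 2 in fibroblasts, 0 in basal keratinocytes and 2 in blood endothelium, with DESeq2 0 in mural cells and 1 in basal keratinocytes, and with the stricter gate 0 in mural cells and 1 in basal keratinocytes. Leaving out each library gave 3 to 6, 3 to 5, 1 to 4, 0 to 3 and 0 to 2 in the order of the gates above. In fibroblasts Serpine2 and Thbd lost their calls with the stricter gate, Edil3 with DESeq2, and C4b, Thbd, Plat and Edil3 without the filter. In basal keratinocytes F5 and Thbd lost theirs without the filter, F5 with DESeq2 and Thbd with the stricter gate. Over all genes, 205, 663 and 318 were called in fibroblasts, papilla cells and basal keratinocytes, against 53, 370 and 157 without the filter and 101, 415 and 147 with DESeq2, and leaving out a library gave 169 to 338 in basal keratinocytes. In mural cells 23 were called, against 93 without the filter, 7 with DESeq2, 43 with the block, 8 with the stricter gate and 30 to 123 without 1 library. In blood endothelium 4 were called, against 71 without the filter, 2 with doublets kept and 19 to 54 without 1 library. Without thinning, the mean share of cells with a Gas6 UMI was 10.6% of mutant and 45.3% of control papilla cells and 53.6% of mutant and 58.1% of control fibroblasts, against 3.18%, 20.3%, 26.8% and 35.2% with it. The leading gate levels of the 5 genes moved by less than their SD over the 4 unsorted libraries under the stricter gate, kept doublets and the 20% mitochondrial limit. That SD includes the genotype difference, so it is a lenient bar. For fibroblast Gas6 it was 200 CPM, against 17.7 CPM within mutant and 58.5 CPM within control libraries. The stricter mural, blood endothelial and macrophage gates hold few cells, and low counts limit Mertk and Tyro3.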

Other observations

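Over whole unsorted libraries, before any gate, Gas6 had 9560 and 9890 UMIs in mutant and 14735 and 14130 UMIs in control libraries. Pros1 had 5698 and 5687 UMIs in mutant and 4685 and 4736 UMIs in control libraries, and Mertk 1024 and 1014 UMIs in mutant and 811 and 814 UMIs in control libraries. The fibroblast and papilla gates were among those in which Gas6 was lower in mutant skin, and they held more cells there. Mutant libraries had 1135 and 1180 fibroblasts and 900 and 886 papilla cells. Control libraries had 776 and 734 fibroblasts and 360 and 372 papilla cells. Whole-library totals mix the number of cells of each type with their level per cell.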
